A study of Lytechinus variegatus with 64 samples.

Results

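In the adult sea urchin Lytechinus variegatus, 15 of 25887 genes were shared by the interambulacral plates of the test and the spines. These genes were at least 3-fold lower in each of 13 other adult sample types. They were chosen by their own values, and the rule sets a ratio and not a low level elsewhere. A gene was taken when its mean over the 4 plate libraries and its median over the 4 spine libraries were both at least 10 CPM (counts of a gene per 1000000 counts of its library), and when the lower of both, with 0.5 CPM added, was at least 3 times the mean, also with 0.5 CPM added, of each of 13 other adult sample types. Levels in plates and spines against those 13 types are therefore a description, with no test. The rule took 0.0579% of all genes. Asked of plates alone it took 37 genes (0.143% of all genes), asked of spines alone it took 90 (0.348%), and the 15 shared genes were 40.5% of the plate list and 16.7% of the spine list.

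The animals were wild type, and the adults, whose age the labels do not give, came from a commercial supplier. PolyA RNA was sequenced as 64 bulk libraries. Interambulacral plates had 4 numbered libraries, and the spines had 1 library each of green, mixed colour, red and white spines, taken here as 1 group whose spread therefore includes colour. The 13 other types were axial gland, eggs, esophagus, gut, lantern muscle, mouth, ovary, peristomial membrane, radial canal, radial nerve, rectum, testis and tube foot, with 3 or 4 libraries each and 49 in all. The 7 remaining libraries, which the rule did not use, were coelomic fluid, a stage 1 ovary, and an ovary, a testis and 3 gonads of indeterminate sex from juveniles 4.5 months after fertilization. The juvenile libraries were made by another sequencing provider than the adult ones, so age and provider cannot be told apart. Whether the libraries of a type are from different animals is not stated, and the p-values below therefore rest on a spread between libraries that could be purely technical.

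The skeleton of a sea urchin is internal. Both the plates, which fit together into the test, and the spines, which articulate on tubercles of the plates, are porous calcite laid down by mesenchymal skeletogenic cells and penetrated by living tissue. These cells secrete proteins that become part of the mineral, and spines can be regrown after they break. Plates and spines are also covered by epidermis with nerve and pigment cells, and the base of a spine carries muscle and ligament, so a bulk library of either holds several cell types, and a difference in the number of cells of a type cannot be told apart from a difference in RNA per cell. Calcite elements also lie in the discs of tube feet, in the lantern (the jaw apparatus) and in the peristomial membrane, which surrounds the mouth.

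Library totals were between 13113913 and 59521125 counts over the 64 libraries, between 23398585 and 32268962 in plates and between 17506035 and 23175242 in spines, the white spine having the lowest of the 8. The white spine stood apart from the coloured spines. Across genes, which are not independent replicates, the Spearman rank correlation was 0.850 to 0.864 between the white spine and the 3 coloured spines and 0.883 to 0.910 among the coloured spines. Between plates and the white spine it was 0.789 to 0.815, against 0.822 to 0.872 between plates and coloured spines. Among plates it was 0.971 between replicates 1 and 2 and 0.884 to 0.923 in the other pairs. Why replicates 1 and 2 were so alike was not tested. Results that rest on the white spine are given with and without it.

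Of the 15 genes, 14 are annotated as protein coding and 1, LOC121421792, as a long non-coding RNA. The sources used here give no product name for any of them, so they are described by identifier and no role is given. For the same reason the tissue labels could not be checked against markers of skeleton, muscle, nerve or pigment. LOC121411678 overlaps a long non-coding RNA gene, LOC121411680, which stood at 343 CPM in plates, 11.3 CPM in the spine median and 598 CPM in the peristomial membrane. LOC121411678 itself had a mean of 0.610 CPM in the peristomial membrane and a spine median of 144 CPM. No strand setting was given, so reads from the stretch that these genes share cannot be told apart and the values of LOC121411678 are uncertain. How many reads this concerns was not tested.

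Together the 15 genes took 1.28% ± 0.607 of all counts in plates (SD, n = 4). The share was 0.527% in plate replicate 1, 1.10% in replicate 2, 1.93% in replicate 3 and 1.57% in replicate 4. It was 1.36% in the green spine, 1.40% in the mixed spines, 0.669% in the red spine and 0.151% in the white spine. The coloured spines thus lay within the range of the plates, and the white spine lay below every plate. In the 49 libraries of the other types the share had a median of 0.00133% and was highest, at 0.0159%, in testis replicate 4. LOC121424524 and LOC121419866 gave 59.1% to 79.2% of these counts in plates and 64.9% to 75.8% in the coloured spines, but 14.1% in the white spine. Wilson 95% intervals of these shares, 0.149% to 0.153% in the white spine for example, cover counting error only.

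**Figure D1:**
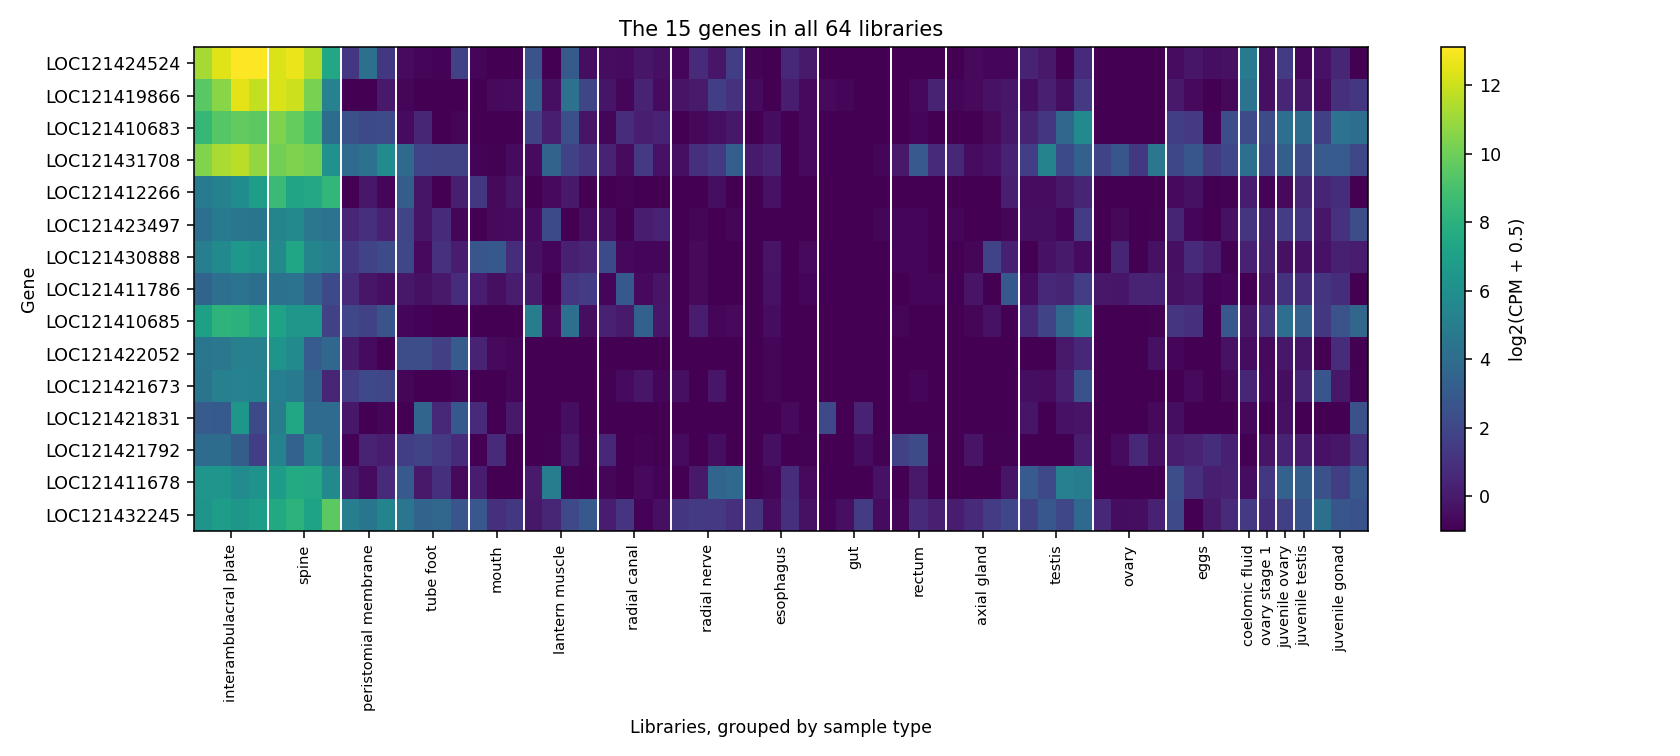
Level of the 15 genes (rows) in each of the 64 libraries (columns, grouped by sample type), as log2(CPM + 0.5) on a colour scale. The plate and spine columns stand out because the genes were chosen for that. The white spine column is darker, which means lower, than the coloured spines in 11 of the 15 rows.

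LOC121424524 had the highest ratio in the rule, 520. Its plate libraries, in the order of replicates 1 to 4, held 2395, 5491, 8652 and 8774 CPM, and its green, mixed, red and white spines held 5076, 6475, 3103 and 175 CPM. Plates and coloured spines overlapped, and the white spine was far below both. The nearest other type was the peristomial membrane, with a mean of 7.36 CPM, and its highest library, replicate 2, had 18.3 CPM. Of the 49 other libraries, 17 held no count.

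LOC121419866 followed with a ratio of 313. Its plates held 722, 1569, 5845 and 3639 CPM, and its green, mixed, red and white spines held 4987, 4130, 1238 and 37.8 CPM. Plate replicate 3 was 8.09 times plate replicate 1, and the white spine was the lowest of the 8 libraries. The nearest type was lantern muscle, with a mean of 8.09 CPM and 18.9 CPM in its replicate 3.

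LOC121431708 had a ratio of 36.8. Its plates held 1382, 2532, 3193 and 1825 CPM, and its green, mixed, red and white spines 1080, 1327, 1144 and 70.9 CPM. Every plate was above every spine, which held for no other of the 15 genes; over all genes at 10 CPM or more in both tissues this was so for 7.16%. Its nearest type was the peristomial membrane. The 3 peristomial libraries had 14.5, 18.7 and 56.0 CPM, testis replicate 2 had 38.4 CPM and ovary replicate 4 had 23.9 CPM. These other libraries were still below the white spine.

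LOC121410683 and LOC121410685 are neighbours in the gene order, with no gene between them. LOC121410683, with a ratio of 38.7, held 332, 674, 850 and 754 CPM in plates and 1304, 861, 457 and 15.3 CPM in the green, mixed, red and white spines. LOC121410685, with a ratio of 6.11, held 127, 286, 263 and 184 CPM in plates and 146, 87.3, 87.1 and 2.86 CPM in the spines in that order. In both the white spine was the lowest of the 8 libraries. It was below the testis mean of each gene, 16.4 CPM for LOC121410683 and 13.8 CPM for LOC121410685. For LOC121410685 it was also below the means of lantern muscle, 11.9 CPM, and of the peristomial membrane, 4.07 CPM. The nearest type of both was testis, and there the libraries were far apart: LOC121410683 had 0.819, 1.84, 11.9 and 50.9 CPM, and LOC121410685 had 1.00, 3.27, 13.8 and 37.3 CPM. The same testis libraries, replicates 3 and 4, were high for both genes. LOC121410685 also reached 30.1 and 17.3 CPM in lantern muscle replicates 1 and 3, against 0.130 and 0.209 CPM in replicates 2 and 4.

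The ratio of the counts within this pair was also compared over tissues. The count of LOC121410683 divided by that of LOC121410685 was 2.62, 2.35, 3.24 and 4.11 in plates, and 8.96, 9.86, 5.24 and 5.36 in the green, mixed, red and white spines. In testis it was 0.818, 0.562, 0.865 and 1.36. The 3 ranges did not overlap, and they compare tissues, not the levels of the 2 genes. Other libraries also lay within them. Coelomic fluid, with 134 and 14 counts, stood at 9.57, within the range of the spines. The stage 1 ovary, with 247 and 94 counts, stood at 2.63, within that of the plates. The peristomial membrane, at 1.46, 1.36 and 0.756, and the juvenile ovary, at 1.01, lay within or just above that of testis. Lantern muscle and radial canal were less even. The ratio was 0.0943, 5, 0.289 and 1.67 in lantern muscle and 0.0657 to 2.5 in radial canal, in part from few counts, and the second indeterminate juvenile gonad, with 1022 and 284 counts, stood at 3.60, within the range of the plates. The ratio was examined after the values had been seen and was not tested. The gene on the other side of LOC121410685, LOC121410689, was not restricted, with 2492 CPM in plates, 2187 CPM in the spine median and 4670 CPM in tube foot.

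LOC121412266 and LOC121411678 also lie side by side. LOC121412266, with a ratio of 21.0, held 28.4, 35.7, 58.2 and 118 CPM in plates and 396, 149, 184.7 and 326 CPM in the green, mixed, red and white spines. All 4 spines were above all 4 plates, and the white spine was not low. Its nearest type was tube foot, with a mean of 2.38 CPM that rested on replicate 1 at 8.52 CPM. LOC121411678, with a ratio of 3.70, held 80.1, 83.1, 56.2 and 73.3 CPM in plates and 104.5, 193, 184 and 51.5 CPM in the spines, so that the coloured spines were above the plates and the white spine below them. Testis was its nearest type, with 7.87, 3.77, 34.6 and 31.4 CPM, and lantern muscle replicate 2 had 29.4 CPM. The ratio of the counts of LOC121412266 to LOC121411678 overlapped between plates, at 0.355 to 1.60, and spines, at 0.774 to 6.32, and was lower than both in testis, at 0.0129 to 0.0476, where LOC121412266 had only 4 to 21 counts.

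LOC121422052 and LOC121421831 form the last pair of neighbours. LOC121422052 held 22.5, 23.4, 34.8 and 35.2 CPM in plates and 77.0, 52.3, 7.94 and 11.9 CPM in the green, mixed, red and white spines, so that red and white lay below every plate. LOC121421831 held 7.65, 7.38, 87.7 and 4.02 CPM in plates and 30.8, 175, 15.01 and 14.6 CPM in the spines. Single libraries carried LOC121421831 in both tissues: without plate replicate 3 its plate mean was 6.35 CPM instead of 26.7 CPM, and the gene no longer met the rule. Tube foot was the nearest type of both, with means of 4.98 and 4.89 CPM. Its replicate 4 held 8.12 CPM of LOC121422052, just above the red spine. Its replicate 2 held 11.7 CPM of LOC121421831, above plate replicates 1, 2 and 4.

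In all, 6 of the 15 genes, in 3 pairs, lay directly beside another of them, whereas 0.112% of the 26814 genes in the RefSeq annotation lie beside one of the 15. The count stayed at 6 when 5 or 10 genes on either side were allowed, where the share of all genes was 0.470% and 0.910%. The first and the last pair had the same nearest other type in both genes, and the second pair did not. Of the 24 genes directly beside the 15 that are not among them, 2 met the ratio but not the 10 CPM minimum. LOC121423498, beside LOC121423497, had 7.73 CPM in plates and 13.6 CPM in the spine median against at most 0.850 CPM elsewhere. LOC121411785, beside LOC121411786, had 5.09 CPM and 4.31 CPM against at most 0.577 CPM. Over all genes, 24 met the ratio without the minimum (0.0927%), of which 9 were not among the 15.

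Another 6 genes lay beside none of the others. LOC121423497 held 17.4, 28.7, 22.4 and 21.9 CPM in plates and 42.6, 48.5, 23.4 and 19.9 CPM in the green, mixed, red and white spines. Its means in the other types were at most 1.22 CPM, in tube foot. LOC121430888 held 32.6, 51.9, 91.5 and 75.5 CPM in plates and 48.7, 154, 41.7 and 31.6 CPM in the spines. Its spines apart from the mixed library lay within or just under the range of the plates, and its nearest type was the mouth at 4.84 CPM.

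LOC121421673 held 20.7, 34.7, 37.1 and 36.0 CPM in plates and 33.3, 26.4, 11.001 and 0.914 CPM in the green, mixed, red and white spines. LOC121411786 held 11.3, 16.9, 20.2 and 16.9 CPM in plates and 18.4, 20.5, 9.56 and 4.06 CPM in the spines. In both genes the white spine was the lowest of the 8 libraries. The white value of LOC121421673 was below the means of the peristomial membrane, 3.25 CPM, and of testis, 1.61 CPM. That of LOC121411786 was below radial canal replicate 2 at 6.87 CPM. The long non-coding LOC121421792 held 14.5, 15.4, 8.33 and 2.54 CPM in plates and 40.6, 10.2, 38.7 and 14.6 CPM in the spines. Its plate mean of 10.2 CPM was just above the minimum, and plate replicate 4 was below rectum replicate 2 at 4.17 CPM.

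LOC121432245 was the gene among the 15 nearest to the threshold, with a ratio of 3.06. Its plates held 78.6, 113, 87.1 and 115 CPM, and its green, mixed, red and white spines 190, 272, 145 and 736 CPM. All 4 spines were above all 4 plates, and the white spine was by far the highest. The peristomial membrane held 32.6, 22.2 and 40.9 CPM and tube foot a mean of 12.9 CPM. Just outside the threshold lay LOC121412240 with a ratio of 2.77, LOC121409407 with 2.68 and LOC121432130 with 2.52, all with the peristomial membrane as the nearest type. Of 8324 genes at 10 CPM or more in plates and spines, 7 had a ratio between 2 and 3.

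The nearest other type was the peristomial membrane for 4 genes, tube foot for 4, testis for 3 and lantern muscle, mouth, radial canal and rectum for 1 each. All 8 plate and spine libraries exceeded each of the 49 other libraries in 8 of the 15 genes, and the plates with the coloured spines were so in 12. Among the 8324 genes at 10 CPM or more in both tissues the shares were 0.144% and 0.192%, which the rule largely sets.

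**Figure D2:**
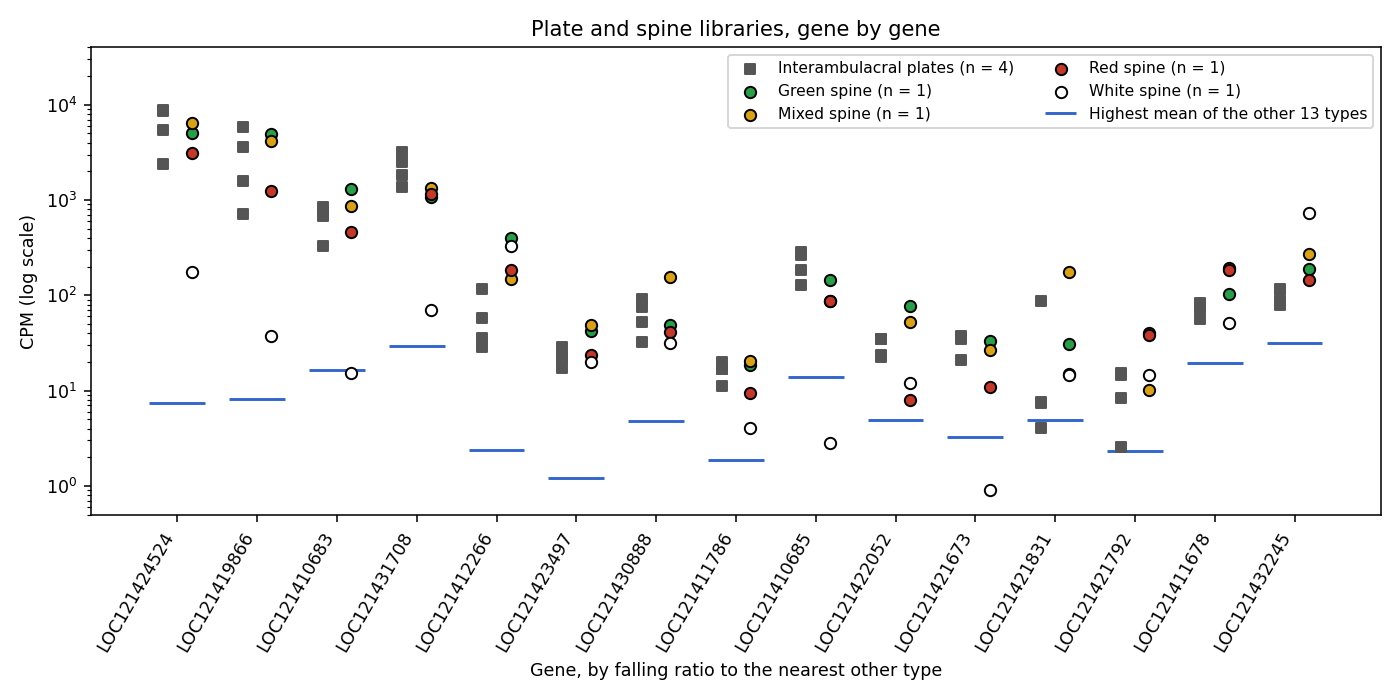
CPM on a log axis of the 15 genes in the 4 plate libraries and the green, mixed, red and white spines (points), with the highest mean among the 13 other types as a blue bar. The white spine lies below the other 3 spines for 11 genes and above them for LOC121432245, at 736 CPM.

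Among plates, replicate 1 was the lowest library for 12 of the 15 genes, against 14.1% of all genes at 10 CPM or more in plates. Replicate 3 was the highest for 7, replicates 2 and 4 for 4 each. Whether the genes vary together across plates was not measured beyond these counts. Their median coefficient of variation among plates was 0.346, against 0.203 over 9687 genes at that level. Among the 3 coloured spines it was 0.485 against 0.243, and with the white spine 0.737 against 0.298. The rule uses a plate mean and a spine median, so it does not bar a single high plate or a single low spine. Genes of the background were not matched for level beyond the minimum. Plate replicate 1 also had the largest total of the 4 plates, 32268962 counts, and the part of depth in its low values was not tested.

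In the white spine 8 of the 15 genes (53.3%) were at least 4-fold below the median of the coloured spines, with 0.5 CPM added. Over the 8908 genes at 10 CPM or more in that median the share was 5.02%. With 1 library per colour there is no test, and the rule, which used the median of the 4 spines, does not bar 1 low library. The fall was 108-fold for LOC121419866, 54.5-fold for LOC121410683, 29.0-fold for LOC121424524, 26.2-fold for LOC121410685, 19.03-fold for LOC121421673 and 16.02-fold for LOC121431708. It was 4.25-fold for LOC121422052 and 4.15-fold for LOC121411786. The first 6 of these stood far apart from the rest. The white values of all 8 were also below every plate. So were those of LOC121411678 and, narrowly, LOC121430888, which fell by less than 4-fold.

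Another 5 genes were lower in the white spine by less, 3.55-fold for LOC121411678, 2.59-fold for LOC121421792, 2.12-fold for LOC121423497, 2.08-fold for LOC121421831 and 1.53-fold for LOC121430888. The other 2 were higher there. LOC121432245 was higher in the white spine by 1.95 on the log2 scale, the only 1 of the 15 at least 2-fold higher (6.59% of the 8908 genes were), and LOC121412266 was higher by 0.82. The median log2 difference, white against coloured, was -2.05 over the 15 genes and 0.13 over the 8908 genes. Of the genes taken by the rule for spines alone, 69 outside the 15 reached 10 CPM in the coloured spines, and 5 of these (7.25%) were at least 4-fold lower in white, with a median of -0.19. Of the genes taken for plates alone, only 3 outside the 15 reached that level, and 1 of these (33.3%) was at least 4-fold lower, with a median of -1.07. The white spine was the lowest of the spines in 11 of the 15 genes, against 21.7% of genes at 10 CPM or more in the spine median. Whether the low values go with colour, with the animal or with the piece of spine taken cannot be told apart in 1 library.

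**Figure D3:**
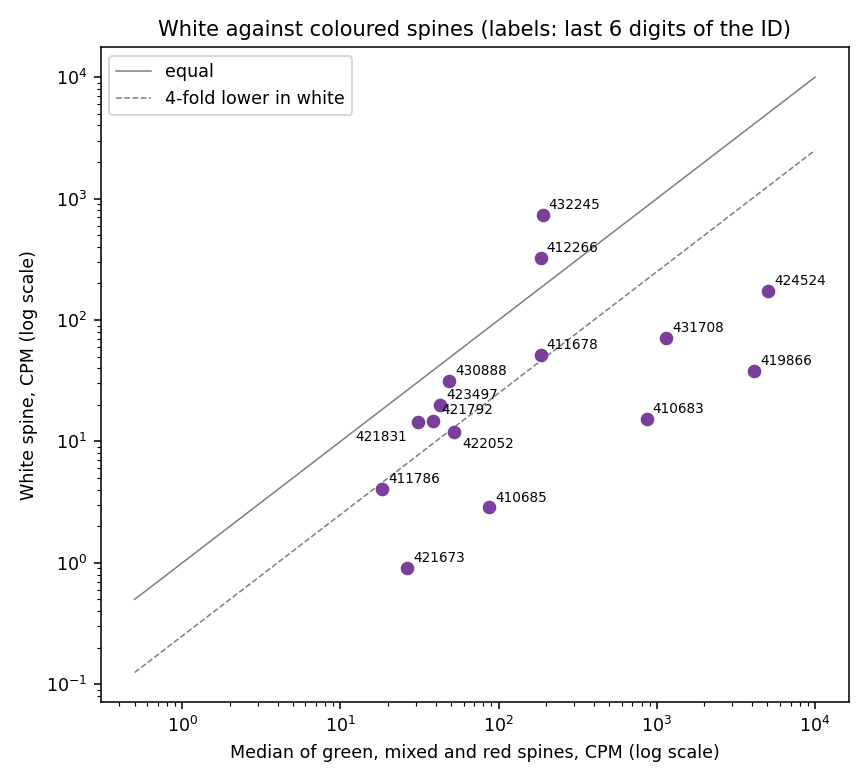
CPM in the white spine (y axis) against the median of the green, mixed and red spines (x axis) for the 15 genes, both on log axes. Of the 15 points, 8 lie at least 4-fold below equality, and LOC121432245 and LOC121412266 lie above it.

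Spines and plates were compared directly, a contrast the rule did not use. With edgeR's quasi-likelihood test on the 4 spine and 4 plate libraries, in which a call needed a difference of 1 or more on the log2 scale and a p under 0.05 after Benjamini-Hochberg adjustment, 693 of 18820 genes were higher in spines (3.68%) and 495 higher in plates (2.63%). Of the 15 genes, 2 were called, both higher in spines, and 0 higher in plates. At an unadjusted p under 0.05 the counts were 4 and 0, where 12.5% and 11.2% of all genes tested were. DESeq2 called 2 and 0 of the 15, with 1 gene left without an adjusted p, and 5.31% and 4.97% of all genes. The median log2 fold change was 0.16 over the 15 genes and -0.02 over all genes tested.

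LOC121412266 was higher in spines by a log2 fold change of 2.14 ± 0.53 (SE, adjusted p = 0.0432, edgeR), from 59.95 ± 40.4 CPM in plates to 264 ± 116 CPM in spines (SD, n = 4 each). LOC121432245 was higher by 1.73 ± 0.44 (adjusted p = 0.0471, edgeR), from 98.5 ± 18.5 to 336 ± 272 CPM. In both genes all 4 spines were above all 4 plates, as in 10.3% of the 8324 genes at 10 CPM or more in both tissues, and neither of these genes fell in the white spine. The calls were close to the threshold. Over 13 alternative fits each was called in 5, with adjusted p between 8.79e-04 and 0.476 for LOC121412266 and between 0.00215 and 0.438 for LOC121432245; LOC121412266 was not called without plate replicate 1, 2 or 3 or without the green, red or white spine, and LOC121432245 not without any single plate or without the green or mixed spine.

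For the other 13 genes a difference between spines and plates did not pass this threshold, which does not show that they were alike. The log2 fold change was -0.72 ± 0.85 for LOC121424524 (adjusted p = 0.661, edgeR), -0.14 ± 1.11 for LOC121419866 (adjusted p = 0.958) and 0.09 ± 0.92 for LOC121410683 (adjusted p = 0.968). It was -1.22 ± 0.72 for LOC121431708 (adjusted p = 0.346) and -1.32 ± 0.85 for LOC121410685 (adjusted p = 0.388). Standard errors of this size, which include the white spine, leave several-fold differences in either direction possible for the first 3. LOC121421792 stood at 1.47 ± 0.63 (adjusted p = 0.197) and LOC121421831 at 1.13 ± 1.17 (adjusted p = 0.604). The remaining 6 lay between -0.77 and 0.95.

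Without the white spine, 673 of 19356 genes were higher in spines (3.48%) and 436 higher in plates (2.25%). Of the 15 genes, 2 were again called higher in spines and 0 in plates, while 5 and 2 had an unadjusted p under 0.05, against 12.7% and 11.9% of all genes tested. LOC121432245 was called at a log2 fold change of 1.12 ± 0.25 (adjusted p = 0.0389, edgeR) and LOC121411678, the gene with an overlapping neighbour, at 1.24 ± 0.24 (adjusted p = 0.0281). LOC121412266 kept its size, 2.10 ± 0.58, with an adjusted p of 0.0698 in edgeR. The standard error of LOC121431708 fell from 0.72 to 0.30 with a log2 fold change of -0.83 (adjusted p = 0.138), and that of LOC121410685 fell from 0.85 to 0.34 with -0.91 (adjusted p = 0.152). For LOC121424524 the value was -0.31 ± 0.47 (adjusted p = 0.729).

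**Figure D4:**
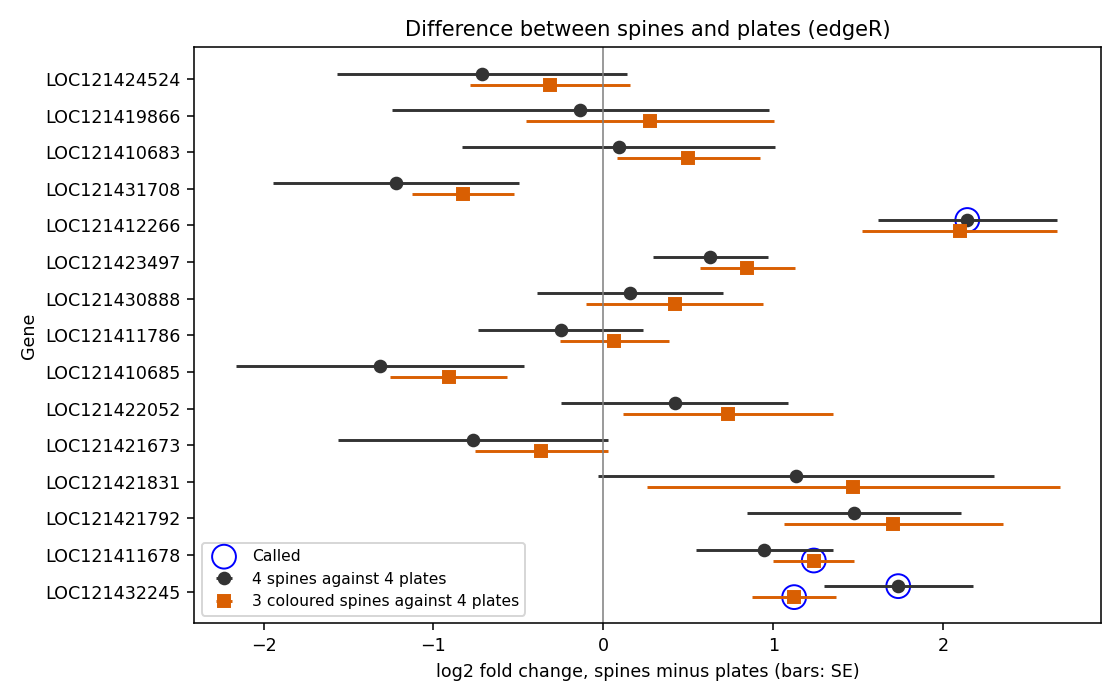
Log2 fold change, spines minus plates, with its standard error for the 15 genes, from edgeR with all 4 spines and without the white spine. Circled points are the called ones, 2 in each fit, and the bars shorten for several genes once the white spine is left out.

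The 7 libraries that the rule did not use had low levels of most of the 15 genes. In coelomic fluid 3 of the 15 were at 10 CPM or more, against 29.0% of all genes. LOC121424524 had 27.9 CPM (exact Poisson 95% interval 26.1 to 29.8), LOC121419866 20.2 CPM (18.7 to 21.9) and LOC121431708 18.2 CPM (16.7 to 19.7). The first 2 of these values were above the mean of each of the 13 other adult types and above each of their 49 libraries, and far below plates and coloured spines. Coelomic fluid is the fluid of the body cavity, with its free cells, and the intervals cover counting error in 1 library only.

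In the juvenile ovary 3 of the 15 genes reached 10 CPM (29.6% of all genes did): LOC121410683 and LOC121410685 at 17.0 CPM each and LOC121411678 at 10.5 CPM. These are the 3 genes whose nearest adult type was testis. In the adult ovary LOC121410683 held 0 counts in every library and LOC121410685 held 2 counts in 1 library and 0 in the others. The juvenile testis had 1 gene at that level (35.5% of all genes), LOC121410683 at 15.3 CPM. LOC121410685 and LOC121411678 lay just under 10 CPM there, at 9.59 and 8.58 CPM. The 3 indeterminate gonads had 1, 1 and 2 genes (37.6%, 36.2% and 33.0% of all genes), which were LOC121432245 at 17.6 CPM in the first, LOC121410683 at 20.05 CPM in the second, and LOC121410683 at 16.8 CPM with LOC121410685 at 11.9 CPM in the third. The stage 1 ovary had 0 (29.2% of all genes), with LOC121410683 at 4.15 CPM.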

How the data were processed

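The authors deposited 1 table of unnormalized read counts, with genes in rows and the 64 libraries in columns. STAR, featureCounts and DESeq2 are named without versions in the submitters' processing notes, and the genome build and strand setting were not given in the sources used here. Of 25890 lines, 3 broken or displaced ones were left out, 1 of them with counts in 61 columns. The other 25887 genes all matched a RefSeq table (Lvar_3.0), used only for biotype and gene order. It gives no product names, so the 8 lists of named genes matched 0 genes, and planned protein and promoter descriptions were not made.

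CPM was computed from column totals. Library totals set the precision, and intervals cover counting error only. Tests used edgeR 4.0.16 (glmQLFit, glmQLFTest, TMM, filterByExpr; limma 3.58.1, R 4.3.3), with DESeq2 1.42.0, DESeq2 size factors, no filter, glmTreat, 1 fit over all adult types and each library left out as alternatives. A standard error is the log2 fold change divided by the square root of its F. The scripts were tested on simulated data.

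The members and lists were chosen with earlier results of these data known. The naming rule (highest ratios and levels, called genes, genes at the threshold, in coelomic fluid, in the white spine and in runs of neighbours) covered all 15. Genes beside them that are not among the 15 are named because of their position, after their values were seen.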

Additional observations from a re-analysis of the deposited data

Results flagged for a closer look

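In 4 of 32 groups of 4 libraries (each gene in plates and in spines, and the share of counts), 1 library lay apart from the other 3 by Dixon's test of the gap against the range. For independent replicates with normal values chance flags about 1 in 20 groups. CPM values and spines of 4 colours need not meet that, and the groups share libraries, so the count is not compared with this rate. LOC121430888 was 154 CPM in the mixed spines, the highest of its spines. LOC121421673 was 20.7 CPM in plate replicate 1, the lowest of its plates. LOC121421831 was set apart in both tissues, with 87.7 CPM in plate replicate 3 and 175 CPM in the mixed spines.

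In coelomic fluid, which entered no comparison of groups, 3 genes were above the mean of each of the 13 other adult types. LOC121424524 had 27.9 CPM against a highest mean of 7.36 CPM, LOC121419866 had 20.2 CPM against 8.09 CPM, and LOC121423497 had 1.72 CPM against 1.22 CPM. The last of these lay below single libraries of other types. This was not particular to coelomic fluid, as juvenile libraries also exceeded each of these means for some genes. LOC121423497 had 4.54 CPM in the third indeterminate gonad, 2.45 CPM in the juvenile ovary and 1.83 CPM in the juvenile testis. In the juvenile ovary LOC121410683 and LOC121410685 had 17.0 CPM each, against highest means of 16.4 and 13.8 CPM. LOC121421673 had 6.41 CPM in the first indeterminate gonad against 3.25 CPM.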

How the results depend on the processing

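The rule took 12 to 22 genes under 16 other settings, 12 to 17 of them with 1 library left out and 13 with TMM-scaled CPM, all within 1.5 times of 15. The count of genes lower in the white spine stayed within that margin of 8 at other pseudocounts and at 2-fold (12, against 11.8% of all genes at that level) and 8-fold (6, against 2.28%). The test of spines against plates depended more on the setting. Counts called higher in spines and in plates were 72 and 45 with glmTreat, 83 and 190 with 1 fit over all types, and 1285 and 1203 with DESeq2. With 1 library left out they ran from 255 to 863 and from 143 to 561, and were lowest without plate replicate 1 (262 and 143) or 2 (255 and 168); they also fell without plate replicate 3 (369 and 253), the green spine (388 and 216) or the red spine (429 and 275). Of the 15 genes, 0 were called with glmTreat or 1 fit over all types, and 0 to 2 with 1 library left out: 0 without plate replicate 1, 2 or 3 or the green spine, and 1 without plate replicate 4 or the mixed or red spine. The cause was not tested. Leaving out 1 library turned the sign of 6 uncalled log2 fold changes, with ranges of -0.69 to 0.46 for LOC121419866, -0.50 to 0.50 for LOC121410683, -0.57 to 0.42 for LOC121430888, -0.26 to 0.75 for LOC121422052, -0.37 to 3.29 for LOC121421831 and -0.51 to 0.065 for LOC121411786.

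At 1 CPM instead of 10, the genes reaching the minimum were 6 in coelomic fluid, 7, 10 and 9 in the 3 indeterminate gonads, 8 in the juvenile ovary, 5 in the stage 1 ovary and 7 in the juvenile testis. Between 57.9% and 67.5% of all genes did so in these libraries. At 50 CPM there were 0 in each, against 7.02% to 14.3% of all genes. No paired analysis was possible because the spine libraries carry no replicate number. Alternatives on protein identity were not run.

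Without plate replicate 2, or with TMM scaling, LOC121421792 and LOC121432245 dropped out of the rule, and without the green or the mixed spine LOC121411786, LOC121422052 and LOC121421831 did. LOC121421792 also dropped out without plate replicate 1, and LOC121432245 without plate replicate 4. In that last setting 17 genes met the rule, 14 of them among the 15. With 4 libraries a side, differences of several-fold in the most variable of the 15 genes could be missed.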
